A study of Mus musculus with 8 samples.

Results

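The TGF-beta and BMP signalling genes described here are 10 genes chosen by name and read from the deposited tables of 39089 genes: the ligands *Tgfb1*, *Tgfb2*, *Tgfb3* and *Bmp4*, the receptors *Tgfbr1* and *Tgfbr2*, the inhibitory SMAD genes *Smad6* and *Smad7*, and the target genes *Id1* and *Id3*. All 10 were listed in the tables, and 9 of them passed the filter on low counts that left 13921 genes for testing; *Bmp4* did not. RNA-seq was made from cells sorted as EpCAM-positive and CD45-negative from subcutaneous tumors of Myc-CaP cells, a Myc-driven prostate cancer line of the mouse. The cells carried either a control vector (EV in the labels, called WT here) or a guide RNA against *Arid1a* (sgARID1A, called *Arid1a* KO or KO here), which encodes a subunit of the SWI/SNF chromatin remodelling complex, and all were grown in male FVB mice that were 6 weeks old at inoculation. From day 16 the mice received corn oil alone (vehicle) or JSH-23 in DMSO diluted in corn oil, by gavage every day for 2 weeks. The study's figure of these tumors labels the arms without JSH-23 as DMSO, so whether the vehicle held DMSO is unclear. JSH-23 inhibits NF-κB by keeping its subunit p65 out of the nucleus. Each of the 4 groups (WT or *Arid1a* KO, each treated with vehicle or JSH-23) had 2 samples. Whether the *Arid1a* KO cells were a single clone was not given in the sources used here, and nothing said that the 2 samples of a group came from separate tumors, so p-values measure only the spread between these samples, which may be technical.

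TGF-beta ligands are secreted in a latent form, and once released they bring together the type II receptor TGFBR2 and the type I receptor TGFBR1, which phosphorylates receptor SMADs; BMP ligands act through their own receptors and SMADs. The inhibitory SMADs are induced by the pathway and feed back on it, SMAD7 on both branches and SMAD6 mainly on the BMP branch. ID proteins block basic helix-loop-helix transcription factors, and their genes are well known targets of BMP SMADs. In epithelial cells TGF-beta signalling is known for growth arrest and for epithelial-mesenchymal transition.

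The total counts ranged from 16401581 to 21972231 per sample, so that 3 counts, taken as the lowest level told from 0, equalled 0.137 to 0.183 CPM (counts scaled to the size of the library); such limits cover counting error only. Over all genes the common biological coefficient of variation was 1.574%. *Arid1a* was lower in every KO sample (94.5 to 105 CPM) than in every WT sample (145 to 161 CPM). The markers went only in part with the sort: *Ptprc*, which encodes CD45, had 0 to 10 counts, but *Epcam* also had only 0 to 4 counts in any sample, whereas the summed level of the 8 epithelial genes examined was 331 to 536 CPM. This sum was 331 to 369 CPM in WT and 457 to 536 CPM in KO samples. Its largest part was *Cldn3* (229 to 339 CPM), followed by *Krt8* (32.7 to 112 CPM) and *Krt19* (11.6 to 103 CPM). Under vehicle *Cldn3* had 4381 and 4432 counts in WT and 4167 and 4929 in KO samples. There *Krt8* had 1006 and 869 counts in WT and 2038 and 2308 in KO samples. *Krt19* had 691 and 624 in WT and 1876 and 2106 in KO samples. *Cdh1*, *Krt18* and *Cldn7* were, like *Epcam*, near the floor, at no more than 0.916, 0.980 and 0.293 CPM in any sample. Summed levels of the markers of other cells were 43.8 to 67.6 CPM for 10 fibroblast genes, with *Fap* at 0 counts in every sample, 1.20 to 2.97 CPM for 8 endothelial genes, 7.69 to 37.1 CPM for 7 pericyte and muscle genes and 17.0 to 36.1 CPM for 13 leukocyte genes. By group, the fibroblast sum was lowest in JSH-23-treated KO samples (43.8 to 45.9 CPM, against 61.6 to 67.6 CPM in the other groups), and the leukocyte sum was 31.6 to 36.1 CPM with vehicle and 17.0 to 28.3 CPM with JSH-23. The pericyte and muscle sum was 27.8 to 37.1 CPM in vehicle-treated WT samples and 7.69 to 21.2 CPM in JSH-23-treated KO samples. Single genes carried much of these sums. *Pdgfra* was at 38.3 to 61.0 CPM, with every other fibroblast gene at no more than 3.57 CPM. *Notch3* was at 6.25 to 26.3 CPM and the leukocyte gene *Cd68* at 4.91 to 18.2 CPM. The fibroblast sum therefore follows *Pdgfra* more than its list as a whole. The leukocyte sum does not follow *Cd68* alone, since *Cd14* was at 6.10 to 12.5 CPM and *Lyz2* at 2.31 to 10.6 CPM. Under vehicle *Lyz2* had 164 and 165 counts in WT and 54 and 71 in KO samples, while *Cd68* was higher in KO samples. Of 8 tested leukocyte genes, 5 (62.5%) were called lower and 1 (12.5%) higher in KO than in WT tumors under vehicle. Over all genes 5.17% were called lower and 7.48% higher. Under JSH-23 it was 4 lower (50%, against 4.81% over all genes) and 1 higher (12.5%, against 3.82%). In 2 samples, WT vehicle replicate 1 and KO JSH-23 replicate 2, the smooth muscle genes *Acta2*, *Myh11* and *Tagln*, singled out after their values were seen, summed to 12 and 13 counts, against 73 to 205 in the other samples. Without both samples, where the spread of a group left with 1 sample is taken from the others, 43 of the 45 tests of the 9 genes kept their direction and side of the threshold, and 5 of the 6 calls were kept. The call lost was the interaction of *Tgfbr1* (-0.57). The part of other cells in the differences below was not tested, and in such sorted bulk samples a smaller number of cells that use a gene cannot be told apart from less RNA per cell.

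Levels of different genes were compared in TPM, which divides each count by the length of its gene. In vehicle-treated WT tumors, *Id1* was the most abundant of the 10 genes (130 ± 1.92 TPM; SD, n = 2 here and below), followed by *Tgfb1* (74.3 ± 0.905 TPM) and *Tgfb3* (68.1 ± 3.08 TPM). Next came *Smad7* (30.8 ± 0.819 TPM), *Smad6* (29.1 ± 3.76 TPM) and *Id3* (27.4 ± 0.137 TPM). The samples of *Smad7* were above those of *Id3*, and the samples of *Smad6*, at 26.5 and 31.8 TPM, spanned both. *Tgfbr2* (19.9 ± 1.77 TPM), *Tgfbr1* (11.9 ± 0.934 TPM), *Tgfb2* (4.73 ± 0.237 TPM) and *Bmp4* (0.217 ± 0.101 TPM) came last, in that order. The order was not the same in all groups: with JSH-23, *Id1* stood at 80.6 ± 3.66 TPM in WT tumors, where its samples overlapped those of *Tgfb1* (84.7 ± 2.45 TPM), and at 154 ± 2.11 TPM in KO tumors, where *Tgfb1* was at 58.9 ± 2.08 TPM. In vehicle-treated KO tumors the receptors lay side by side, with *Tgfbr2* at 15.8 ± 0.0694 TPM and *Tgfbr1* at 15.5 ± 0.277 TPM. The 2 samples of a group were close for most of these genes: of the 36 pairs formed by the 9 tested genes in 4 groups, 28 were within 1.1-fold, and the widest, *Smad6* in vehicle-treated WT tumors, was 1.20-fold apart.

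**Figure D1:**
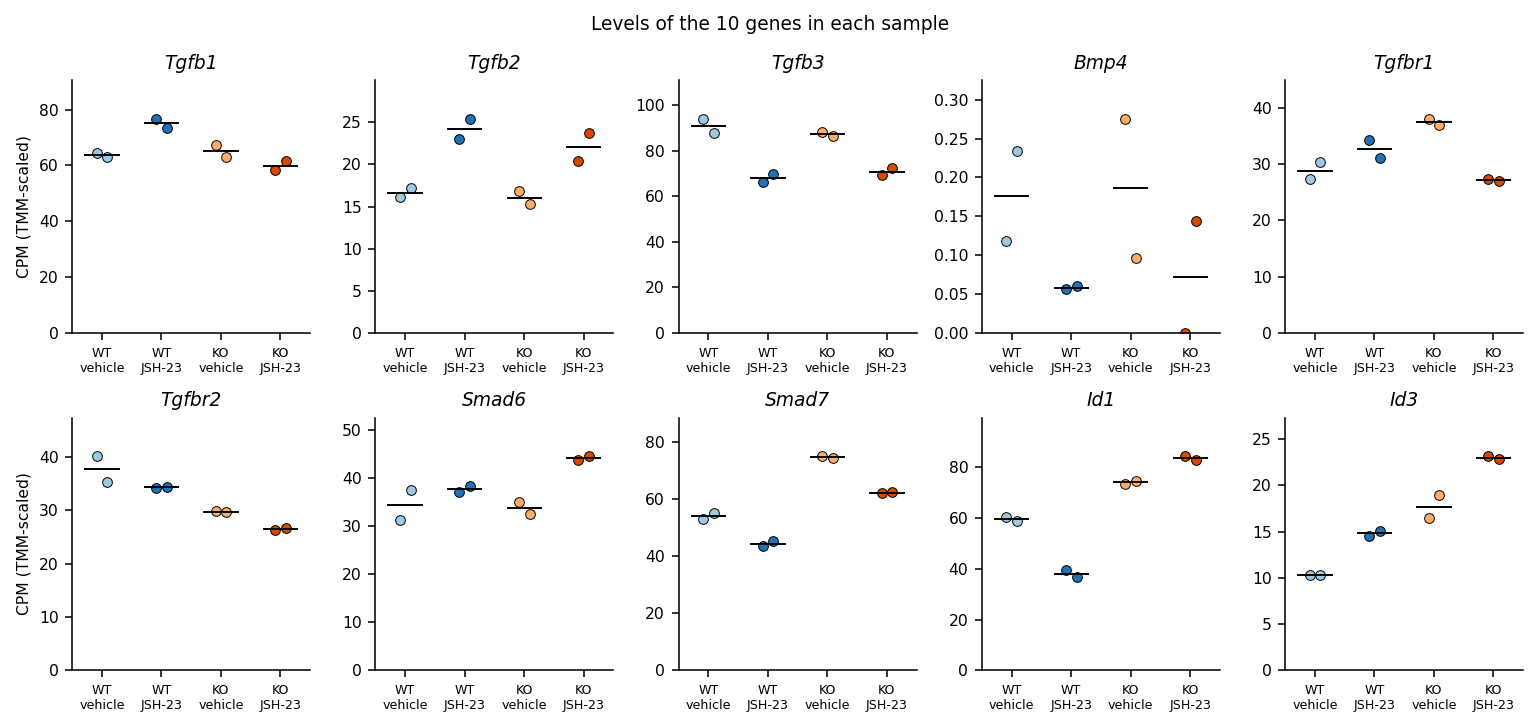
Level of each of the 10 genes in CPM after TMM scaling (vertical axis, starting at 0, with its own range for each gene) in the 4 groups; points are the 2 samples of a group and the line is their mean. *Id1* was lowest in JSH-23-treated WT tumors, at 36.9 and 39.4 CPM, *Id3* was highest in JSH-23-treated KO tumors, at 22.8 and 23.1 CPM, and *Bmp4* stayed under 0.3 CPM.

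In what follows a gene rose or fell if its p from the quasi-likelihood test of edgeR, adjusted by Benjamini-Hochberg over all 13921 genes, was under 0.05. It was called if it also changed at least 1.5-fold. The spread between samples was small, and the first criterion alone was met by a large share of all genes, 50.5% for KO against WT with vehicle and 46.8% for the same with JSH-23. It was met by 55.9% of genes for JSH-23 against vehicle in WT tumors, 68.1% for the same in KO tumors and 38.6% for the interaction, the difference between the JSH-23 effects in the 2 genotypes.

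The first question was how loss of *Arid1a* changed these genes in tumors. With vehicle, 5 of the 9 tested genes differed at an adjusted p under 0.05, and 1 of them was called, *Id3*, which was higher in KO tumors; over all genes 7.48% were called higher and 5.17% lower. With JSH-23, 7 of the 9 differed and 2 were called higher, *Id1* and *Id3*, while over all genes 3.82% were called higher and 4.81% lower. The median log2 fold change of the 9 genes was 0.03 with vehicle and 0.06 with JSH-23, and over all genes it was 0.003 and -0.004. The samples of the genotypes did not overlap for 5 of the 9 genes with vehicle and 7 with JSH-23, and neither did they for 74.0% and 70.7% of all genes tested.

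The second question was what JSH-23 did in each genotype. In WT tumors 7 of the 9 genes changed and 1 was called, *Id1*, which was lower with JSH-23; over all genes 5.7% were called higher and 10.2% lower. In KO tumors all 9 tested genes changed at an adjusted p under 0.05 and 0 were called, while over all genes 9.57% were called higher and 16.6% lower. Samples with and without JSH-23 did not overlap for 8 of the 9 genes in WT tumors and for 9 of 9 in KO tumors, and over all genes this held for 76.5% and 82.9%. In the interaction 4 of the 9 passed, of which *Id1* was called higher and *Tgfbr1* lower; over all genes 3.44% were called higher and 5.6% lower. The adjusted p alone was passed in 32 of the 45 tests of the 9 genes, a count that fell to 14 with a biological coefficient of variation set at 0.1 and to 1 with 0.2, values that allow for more spread than these samples had.

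**Figure D2:**
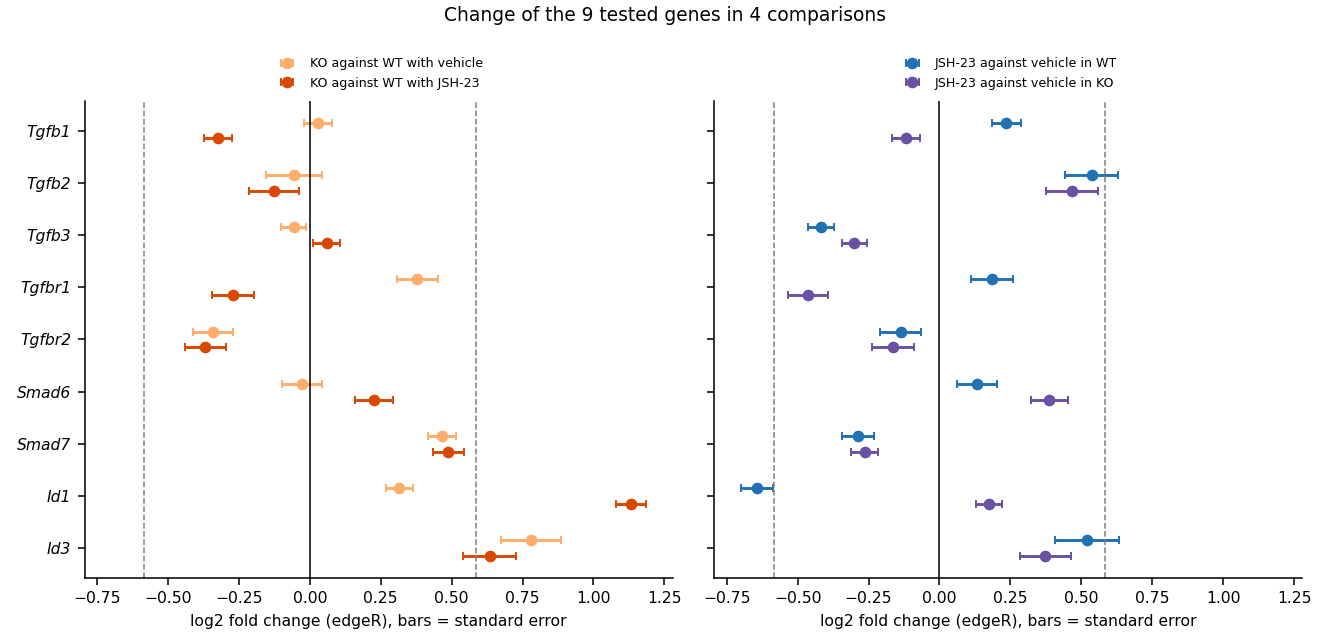
Log2 fold changes (horizontal axis) of the 9 tested genes from edgeR, with standard errors as bars, for KO against WT (left) and JSH-23 against vehicle (right); dashed lines mark a 1.5-fold change. Outside the dashed lines lie *Id3* for both comparisons of genotype, at 0.78 and 0.63, and *Id1* for KO against WT with JSH-23, at 1.13, and for JSH-23 against vehicle in WT tumors, at -0.64.

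*Id1* and *Id3*, the target genes, held every call made in a comparison of groups, and they moved differently. *Id1* lies on chromosome 2 of GRCm38, from 152736251 to 152737410, and *Id3* on chromosome 4, from 136143822 to 136145392, both on the plus strand. *Id1* was at 60.3 and 58.9 CPM in vehicle-treated and 39.4 and 36.9 CPM in JSH-23-treated WT tumors. In KO tumors it was at 73.6 and 74.7 CPM with vehicle and 84.4 and 83.1 CPM with JSH-23. The 4 groups did not overlap, and the JSH-23-treated samples were below the vehicle-treated ones in WT and above them in KO tumors. In WT tumors *Id1* fell with JSH-23 by 1.56-fold (log2 fold change -0.64, standard error 0.057, edgeR adjusted p = 3.98e-16). In KO tumors the log2 fold change was 0.17 (standard error 0.045, edgeR adjusted p = 0.000487), a rise that depends on the scaling, since it was 0.05 when only library size was used and -0.07 on the TPM scale, neither past the threshold. The difference between the effects was itself called, at 0.82 (standard error 0.072, edgeR adjusted p = 1.1e-15).

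Under vehicle KO tumors had 1.24-fold more *Id1* than WT tumors (edgeR adjusted p = 8.17e-08) and under JSH-23 2.19-fold more (log2 fold change 1.13, standard error 0.052, edgeR adjusted p = 2.92e-30). The latter was the only 1 of the 45 tests of these genes to pass with a biological coefficient of variation of 0.2 (adjusted p = 0.0114). Among 77 other tested genes of the pathway, the 2 whose log2 CPM went most closely with *Id1* over the 8 samples were *Id2*, another ID gene (Pearson r = 0.961), and *Smurf2*, a ubiquitin ligase of the pathway (r = 0.950), given as a description over samples that share libraries and groups. *Id2* was at 297 and 291 CPM in vehicle-treated and 235 and 233 CPM in JSH-23-treated WT tumors. KO tumors had 335 and 339 CPM with vehicle and 321 and 321 CPM with JSH-23. The lowest group was the same as for *Id1*, and in KO tumors *Id2* was lower with JSH-23 (log2 fold change -0.07, edgeR adjusted p = 0.0035).

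*Id3* was at 10.4 and 10.3 CPM in vehicle-treated and 14.5 and 15.1 CPM in JSH-23-treated WT tumors. The KO samples stood at 16.4 and 18.9 CPM with vehicle and 23.1 and 22.8 CPM with JSH-23. Again no groups overlapped, and the level was higher with JSH-23 in both genotypes. *Id3* was called higher in KO than in WT tumors under vehicle, by 1.72-fold (log2 fold change 0.78, standard error 0.11, edgeR adjusted p = 2.28e-09), and under JSH-23, by 1.55-fold (log2 fold change 0.63, standard error 0.094, edgeR adjusted p = 3.07e-08). The second call is near the 1.5-fold limit and was not made with library size alone (0.55) or on the TPM scale (0.43). With JSH-23 *Id3* rose 1.43-fold in WT tumors (edgeR adjusted p = 5.27e-05) and 1.30-fold in KO tumors (edgeR adjusted p = 0.000172), the latter not past the threshold on the TPM scale (log2 difference 0.13, adjusted p = 0.106). The interaction of *Id3* was -0.15 (standard error 0.14, edgeR adjusted p = 0.45), and over the alternatives it was -0.34 to -0.037. It passed the threshold on log2(TPM + 1), where the median over all genes was -0.17. The pathway genes that went most closely with *Id3* were *Strap*, which encodes a receptor-associated protein (r = 0.897), and the cyclin-dependent kinase inhibitor gene *Cdkn2b* (r = 0.858). The ratio of *Id1* to *Id3* in TPM went from 4.72 and 4.78 in vehicle-treated WT tumors to 2.01 and 2.23 with JSH-23, and from 3.25 and 3.69 to 3.0 and 3.0 in KO tumors.

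The 3 TGF-beta ligand genes each had their own pattern. *Tgfb1* (chromosome 7, from 25687002 to 25705077), the prototype of these ligands, was at 64.5 and 63.2 CPM in vehicle-treated and 76.7 and 73.5 CPM in JSH-23-treated WT tumors. In KO tumors it was at 67.4 and 63 CPM with vehicle and 58.3 and 61.5 CPM with JSH-23. The genotypes overlapped with vehicle and were apart with JSH-23, with WT higher. *Tgfb1* rose with JSH-23 in WT tumors (log2 fold change 0.24, standard error 0.050, edgeR adjusted p = 4.25e-05), and in KO tumors it fell by 0.12 (standard error 0.049, edgeR adjusted p = 0.0325), a change that did not pass with DESeq2 (adjusted p = 0.114) or without replicate 1 of either KO group (adjusted p = 0.233 without the vehicle sample, 0.185 without the JSH-23 sample). The interaction was -0.35 (standard error 0.070, edgeR adjusted p = 2.71e-05).

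*Tgfb2* (chromosome 1, from 186622787 to 186709697) rose with JSH-23 in both genotypes. It was at 16.1 and 17.2 CPM in vehicle-treated and 23 and 25.4 CPM in JSH-23-treated WT tumors. KO tumors had 16.9 and 15.3 CPM with vehicle and 20.4 and 23.7 CPM with JSH-23. Every sample with JSH-23 was above every sample without it, and the genotypes overlapped. The log2 fold change with JSH-23 was 0.54 in WT tumors (standard error 0.094, edgeR adjusted p = 1.31e-06), just under the 1.5-fold limit, which it passed without WT vehicle replicate 2 (0.59) or WT JSH-23 replicate 1 (0.61). It was 0.47 in KO tumors (standard error 0.092, edgeR adjusted p = 8.25e-06) and 0.17 there on the TPM scale (adjusted p = 0.161). The interaction was -0.07 (standard error 0.13, edgeR adjusted p = 0.723).

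*Tgfb3* (chromosome 12, from 86056743 to 86079041) went the opposite way. It was at 94.1 and 87.9 CPM in vehicle-treated and 66.4 and 70.0 CPM in JSH-23-treated WT tumors. The KO samples stood at 88.4 and 86.6 CPM with vehicle and 69.2 and 72.6 CPM with JSH-23. All samples with JSH-23 were below all samples with vehicle, and the genotypes overlapped in each treatment. *Tgfb3* fell with JSH-23 by 0.42 on the log2 scale in WT tumors (standard error 0.047, edgeR adjusted p = 3.58e-12) and by 0.30 in KO tumors (standard error 0.044, edgeR adjusted p = 1.22e-08), and the interaction was 0.12 (standard error 0.064, edgeR adjusted p = 0.149).

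Per length and under vehicle, the 3 ligand genes summed to 144 to 150 TPM in WT and 143 to 150 TPM in KO tumors. With JSH-23 the sum was 141 TPM in both WT samples and 106 and 112 TPM in the KO samples. The TPM of all genes in KO tumors shifted as well: the median log2 difference with JSH-23 over all genes was -0.20 on the TPM scale and -0.01 after TMM scaling, and shares within a sample do not depend on that scaling. The share of *Tgfb1* in the sum was 50.0% and 51% in vehicle-treated WT tumors and 59.0% and 61.4% with JSH-23, while that of *Tgfb3* went from 45.6% and 46.9% to 34.1% and 36.1%. In KO tumors the share of *Tgfb1* went from 51.5% and 52.5% to 54.0% and 54.1%. *Tgfb2* made up 3.05% to 5.08% of the sum in any sample.

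**Figure D3:**
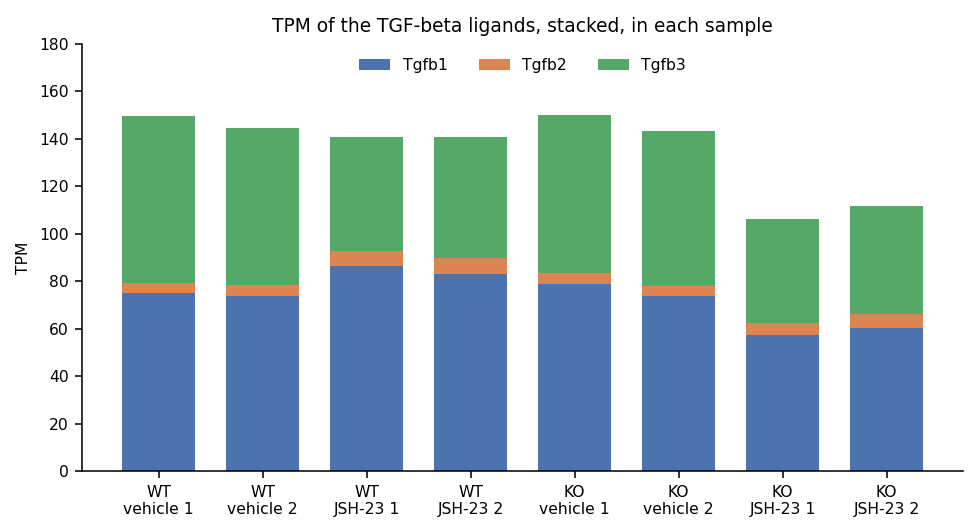
TPM of *Tgfb1*, *Tgfb2* and *Tgfb3* stacked for each of the 8 samples (vertical axis, TPM; the number after each group is the replicate). The JSH-23-treated KO samples have the lowest sums, 106 and 112 TPM, and *Tgfb2* is the thin middle layer in every sample.

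The BMP ligand gene *Bmp4* (chromosome 14, from 46383525 to 46390669) was at or near the lowest level told from 0. Its counts were 2 and 4 in vehicle-treated and 1 and 1 in JSH-23-treated WT tumors. They were 5 and 2 in vehicle-treated and 0 and 3 in JSH-23-treated KO tumors, so no difference between groups was detectable at this depth.

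The receptor genes differed in how they responded. *Tgfbr1* (chromosome 4, from 47353222 to 47414926), which encodes the type I receptor kinase, was at 27.3 and 30.4 CPM in vehicle-treated and 34.4 and 31.2 CPM in JSH-23-treated WT tumors. In KO tumors it was at 38.0 and 37.0 CPM with vehicle and 27.4 and 27.0 CPM with JSH-23. KO tumors were above WT tumors under vehicle and below them under JSH-23. With vehicle the log2 fold change between genotypes was 0.38 (standard error 0.072, edgeR adjusted p = 7.23e-06) and with JSH-23 it was -0.27 (standard error 0.074, edgeR adjusted p = 0.00171), the latter not past the threshold without WT JSH-23 replicate 1 (-0.20, adjusted p = 0.0842). *Tgfbr1* fell with JSH-23 in KO tumors by 0.46 on the log2 scale (standard error 0.071, edgeR adjusted p = 3.29e-08), and this was past 1.5-fold with library size alone (-0.59) and on the TPM scale (-0.66). In WT tumors the log2 fold change was 0.19 (standard error 0.075, edgeR adjusted p = 0.0311), and it did not pass with DESeq2 (adjusted p = 0.149) or without WT vehicle replicate 1 (adjusted p = 0.329) or WT JSH-23 replicate 1 (adjusted p = 0.333). The interaction, -0.65 (standard error 0.10, edgeR adjusted p = 2.83e-07), was called, and without either of those WT samples it passed the adjusted p but was under 1.5-fold (-0.57 in both cases).

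*Tgfbr2* (chromosome 9, from 116087695 to 116175363), which encodes the type II receptor that binds the ligand, was lower in KO tumors under both treatments. It was at 40.1 and 35.2 CPM in vehicle-treated and 34.1 and 34.3 CPM in JSH-23-treated WT tumors. KO tumors had 29.8 and 29.6 CPM with vehicle and 26.3 and 26.7 CPM with JSH-23. Every KO sample was below every WT sample. *Tgfbr2* fell by 0.34 on the log2 scale with vehicle (standard error 0.071, edgeR adjusted p = 3.77e-05) and by 0.37 with JSH-23 (standard error 0.073, edgeR adjusted p = 2.02e-05). The fall with JSH-23 in KO tumors, 0.16 on the log2 scale (edgeR adjusted p = 0.0433), did not pass with DESeq2 (adjusted p = 0.138) or without any 1 of the 4 KO samples (adjusted p = 0.0784 to 0.108). Under vehicle the ratio of *Tgfbr1* to *Tgfbr2* in TPM was 0.530 and 0.672 in WT and 0.991 and 0.973 in KO tumors. Under JSH-23 it was 0.783 and 0.706 in WT and 0.810 and 0.787 in KO tumors.

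The inhibitory SMAD genes did not move together. *Smad7* (chromosome 18, from 75367365 to 75395935), a feedback inhibitor that brings ubiquitin ligases to the receptors, was at 53.1 and 55 CPM in vehicle-treated and 43.5 and 45.2 CPM in JSH-23-treated WT tumors. The KO samples stood at 74.9 and 74.4 CPM with vehicle and 62.0 and 62.3 CPM with JSH-23. The 4 groups were apart, with KO above WT and vehicle above JSH-23. *Smad7* was higher in KO tumors by 0.47 on the log2 scale with vehicle (standard error 0.050, edgeR adjusted p = 1.28e-12) and by 0.49 with JSH-23 (standard error 0.054, edgeR adjusted p = 2.84e-12). It fell with JSH-23 by 0.29 in WT tumors (edgeR adjusted p = 1.26e-05) and by 0.26 in KO tumors (edgeR adjusted p = 1.63e-06). The interaction was 0.02 (standard error 0.074, edgeR adjusted p = 0.851), and on the TPM scale it was -0.18 (adjusted p = 0.0365), with a median over all genes of -0.17.

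*Smad6* (chromosome 9, from 63953076 to 64022085) was at 31.4 and 37.6 CPM in vehicle-treated and 37.2 and 38.4 CPM in JSH-23-treated WT tumors. In KO tumors it was at 35.1 and 32.6 CPM with vehicle and 43.8 and 44.6 CPM with JSH-23. Only the JSH-23-treated KO samples stood above all the others. *Smad6* rose with JSH-23 in KO tumors (log2 fold change 0.39, standard error 0.067, edgeR adjusted p = 5.3e-07), although on the TPM scale this was 0.13 and did not pass (adjusted p = 0.186). In WT tumors it was 0.13 (standard error 0.071, edgeR adjusted p = 0.111). The interaction, 0.26 (edgeR adjusted p = 0.0312), did not pass with DESeq2 (adjusted p = 0.178), and without WT vehicle replicate 2 it was 0.12 (adjusted p = 0.418); leaving out WT JSH-23 replicate 1, KO vehicle replicate 2 or KO JSH-23 replicate 2 also ended it (0.20 to 0.23, adjusted p = 0.0939 to 0.163).

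The sequence just before the start of transcription, 250 bases for each RefSeq start (build GRCm38.p6), was read for 7 of the 10 genes, with 8 windows in all since *Tgfbr1* has 2 starts. The windows of the called gene *Id3* and of *Tgfb1*, *Tgfb2* and *Tgfbr1*, whose changes with JSH-23 are given above, are shown to place short motifs of the pathway and of NF-κB. Capitals mark the SMAD motif CAGAC (or GTCTG, the same on the other strand), the BMP SMAD motif GGCGCC, the NF-κB consensus or the TATA motif TATAAA; both strands were searched, and the motifs overlap nowhere in these windows.
*Id3*, chr4:136143572-136143821, plus strand: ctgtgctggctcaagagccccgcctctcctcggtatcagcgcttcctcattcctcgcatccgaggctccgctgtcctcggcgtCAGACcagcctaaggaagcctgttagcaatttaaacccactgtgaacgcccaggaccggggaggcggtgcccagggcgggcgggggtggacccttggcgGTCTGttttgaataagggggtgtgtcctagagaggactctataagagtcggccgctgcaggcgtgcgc
*Tgfb1*, chr7:25686752-25687001, plus strand: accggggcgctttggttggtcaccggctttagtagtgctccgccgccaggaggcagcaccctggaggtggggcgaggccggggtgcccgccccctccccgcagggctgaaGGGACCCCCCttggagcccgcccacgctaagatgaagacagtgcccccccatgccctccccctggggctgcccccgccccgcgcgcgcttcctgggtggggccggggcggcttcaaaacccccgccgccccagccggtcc
*Tgfb2*, chr1:186705990-186706239, minus strand: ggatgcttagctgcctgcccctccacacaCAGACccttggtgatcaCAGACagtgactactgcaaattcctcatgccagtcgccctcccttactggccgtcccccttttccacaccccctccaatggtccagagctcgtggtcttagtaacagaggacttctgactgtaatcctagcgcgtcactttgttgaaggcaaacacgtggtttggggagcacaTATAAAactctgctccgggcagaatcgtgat
*Tgfbr1*, chr4:47352972-47353221, plus strand: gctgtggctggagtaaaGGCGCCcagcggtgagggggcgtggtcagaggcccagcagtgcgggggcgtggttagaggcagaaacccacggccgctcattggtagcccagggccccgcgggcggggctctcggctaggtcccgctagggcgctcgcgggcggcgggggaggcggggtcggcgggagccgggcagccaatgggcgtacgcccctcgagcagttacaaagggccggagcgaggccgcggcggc

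*Id3*, higher in KO tumors, has 2 copies of the SMAD motif, which begin 167 and 68 bases before the start. *Tgfb2*, which rose with JSH-23, has 2 copies at 221 and 204 bases and a TATA motif at 31 bases before the start. *Tgfb1* has an NF-κB consensus 140 bases before the start, and *Tgfbr1* a BMP SMAD motif at 233 bases. Of the windows not shown, that of *Tgfbr2* and the second of *Tgfbr1* hold the SMAD motif, and those of *Smad6* and *Bmp4* hold no motif searched. These matches are a description of letters and not of binding. Of 32851 mouse promoter windows of the same length, 42.2% hold the SMAD motif, 9.59% the BMP SMAD motif, 7.25% the NF-κB consensus and 12.4% the TATA motif. The longer palindromic SMAD motif, found in 0.167% of windows, was in no window of the 7 genes. The windows of *Tgfb3*, *Smad7* and *Id1* were not searched, so nothing can be said of motifs there.

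The rest of the pathway was described with 122 other genes in 7 lists, of which 77 passed the filter. Between genotypes, 6 of the 77 were called higher (7.79%, against 7.48% over all genes) and 10 lower (13.0%, against 5.17%) in KO than in WT tumors under vehicle. Under JSH-23 it was 3 higher (3.90%, against 3.82%) and 10 lower (13.0%, against 4.81%). These counts depended on the processing: the 16 called under vehicle were 10 with DESeq2 or with a minimum of 10 counts per sample, and the 13 under JSH-23 were 7 with DESeq2 and 5 with that minimum. Without the 2 samples low in muscle genes, 4 were called higher and 10 lower under vehicle and 3 higher and 6 lower under JSH-23, and 5 of these 6 were among the 10. With JSH-23 against vehicle, 3 were called higher (3.90%, against 5.7% over all genes) and 9 lower (11.7%, against 10.2%) in WT tumors. In KO tumors 4 were called higher (5.19%, against 9.57%) and 13 lower (16.9%, against 16.6%). In the interaction 3 were higher (3.90%, against 3.44%) and 1 lower (1.30%, against 5.6%). The medians were 0.02 and -0.12 for the comparisons of genotype with vehicle and JSH-23, and -0.01 and -0.14 for JSH-23 in WT and KO tumors, against medians within 0.01 of 0 over all genes.

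Of the 17 tested genes listed as TGF-beta targets, 7 were called lower with JSH-23 in WT tumors (41.2%) and 0 higher, and the counts were the same in KO tumors. Over all genes 10.2% were called lower in WT and 16.6% in KO tumors. The medians of the 17 were -0.78 and -0.47. *Junb*, *Edn1*, *Pdgfb* and *Itgb6* were among the genes called lower in both genotypes, and those comparisons share no samples. *Junb*, which encodes an AP-1 subunit, fell by 0.93 on the log2 scale in WT tumors (edgeR adjusted p = 2.39e-45) and by 1.15 in KO tumors (edgeR adjusted p = 2.4e-54). *Pdgfb* (1.64 and 1.92 lower on the log2 scale in WT and KO tumors) and the integrin gene *Itgb6* (1.37 and 0.71 lower) were between 0.385 and 2.36 CPM. The fall of *Itgb6* in KO tumors did not pass without any 1 of the 4 KO samples (adjusted p = 0.0591 to 0.234). *Junb* and *Edn1* are also known to respond to other signals, such as TNF.

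*Ccn2*, which encodes a matricellular protein also known as CTGF, was 1 of 2 listed targets with a called interaction. It was at 53.6 and 51.4 CPM in vehicle-treated and 11.4 and 10.7 CPM in JSH-23-treated WT tumors. The KO samples stood at 24.6 and 25.5 CPM with vehicle and 21.2 and 19.9 CPM with JSH-23. The drop with JSH-23 was 4.76-fold in WT tumors (log2 fold change -2.25, standard error 0.084, edgeR adjusted p = 1.35e-35), and the interaction was called (1.96, standard error 0.12, edgeR adjusted p = 2.23e-23). *Klf10*, a TGF-beta inducible transcription factor gene, was at 115 and 114 CPM in vehicle-treated and 107 and 111 CPM in JSH-23-treated WT tumors. In KO tumors it was at 219 and 214 CPM with vehicle and 118 and 123 CPM with JSH-23. The groups did not overlap, with the vehicle-treated KO samples far above the rest, and the interaction of -0.77 (standard error 0.049, edgeR adjusted p = 2.42e-22) was called. In the comparison of genotypes, some calls rest on few counts. *Snai1* was called higher and *Tgfbi* lower in KO tumors under both treatments, with at most 23 and 27 counts in any sample. Under vehicle *Snai1* was at 1.72, and at 0.88 without KO vehicle replicate 2. Under JSH-23 *Tgfbi* was at -2.80, and at -1.51 without WT JSH-23 replicate 1. *Itgb6*, with at most 49 counts, was called higher under JSH-23 (0.98, and 0.76 without WT JSH-23 replicate 2). With these, 3 of the 17 targets were called higher (17.6%, against 7.48% over all genes) and 4 lower (23.5%, against 5.17%) with vehicle. With JSH-23, 3 of the 17 were called higher (17.6%, against 3.82%) and 2 lower (11.8%, against 4.81%). Without the 2 samples low in muscle genes, 0 were called lower with JSH-23.

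**Figure D4:**
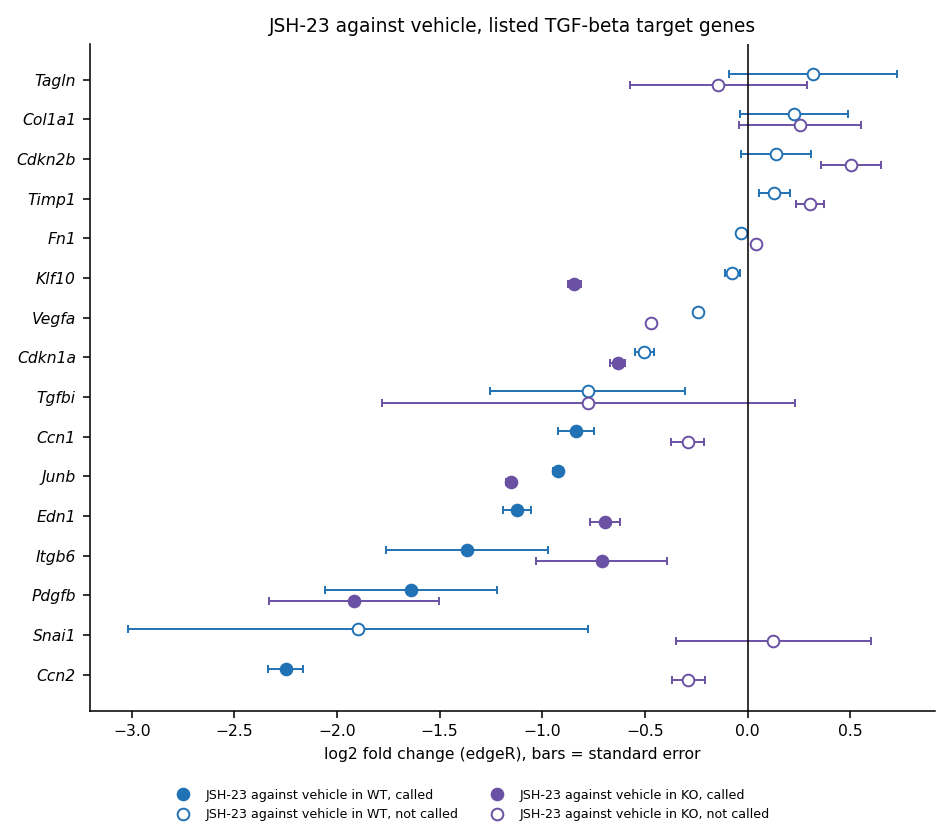
Log2 fold change with JSH-23 against vehicle (horizontal axis, from edgeR, with standard errors) for 16 of the 17 tested genes listed as TGF-beta targets, in WT and in KO tumors; filled points were called and open points were not. The 6 filled points of each genotype all lie to the left of 0, and *Ccn2* lies at -2.25 in WT and -0.29 in KO tumors.

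Of 5 tested receptor and common SMAD genes, *Smad9* was called lower in KO tumors under both treatments (-0.80 with vehicle, edgeR adjusted p = 4.13e-07, and -0.74 with JSH-23, edgeR adjusted p = 4.28e-07). *Smad5* was called lower in KO tumors under JSH-23 (-0.68, edgeR adjusted p = 1.21e-22). That makes 1 of the 5 under vehicle and 2 of the 5 under JSH-23, against 5.17% and 4.81% called lower over all genes. In a list of 5, a single call is already 20%. Both genes encode SMADs of the BMP branch. Of 10 other receptor genes, the type I receptor gene *Bmpr1b* was called higher (0.68) and the co-receptor gene *Eng* lower (-0.67) in KO than in WT tumors under vehicle. That is 10% each way, against 7.48% higher and 5.17% lower over all genes. *Bmpr1b* did not pass without WT vehicle replicate 2 (0.45, adjusted p = 0.160) or KO vehicle replicate 1 (0.59, adjusted p = 0.0725), and *Eng* was under 1.5-fold without WT vehicle replicate 1 (-0.55) or KO vehicle replicate 1 (-0.52). *Acvrl1* was called lower with JSH-23 in both genotypes (-1.64 in WT and -1.33 in KO tumors), and *Bmpr1b* in KO tumors (-0.59). Of the 10 receptor genes 10% were thus called lower in WT and 20% in KO tumors, against 10.2% and 16.6% over all genes. Of 4 other ligand genes, *Bmp8a* was called lower in KO than in WT tumors under vehicle (-0.72) and higher with JSH-23 in KO tumors (0.71). *Gdf15*, with at most 13 counts in any sample, was called the opposite way in both comparisons (1.83 and -2.58). In this list a single call is already 25%. Over all genes 7.48% were called higher and 5.17% lower in the first comparison, and 9.57% and 16.6% in the second. Of 6 tested BMP targets, 1 (16.7%) was called higher in KO than in WT tumors under vehicle, against 7.48% over all genes. With JSH-23 1 (16.7%) was called higher in each genotype, against 5.7% over all genes in WT and 9.57% in KO tumors. The latter was *Msx2*, with 6 and 9 counts in vehicle-treated and 29 and 32 in JSH-23-treated WT tumors. Its counts in KO tumors were 16 and 11 with vehicle and 28 and 32 with JSH-23, and the call in KO tumors ended without KO vehicle replicate 2 (0.79, adjusted p = 0.158). *Atoh8*, another BMP target, was called higher in KO than in WT tumors under vehicle (1.07), but not without either WT vehicle sample (adjusted p = 0.0527 and 0.0754) or KO vehicle replicate 2 (0.56, adjusted p = 0.386).

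Of 17 tested genes that act on the ligands outside the cell, 3 were called lower (17.6%) in KO than in WT tumors under vehicle. Under JSH-23 5 were called lower (29.4%) and 1 higher (5.88%). Over all genes 5.17% were called lower under vehicle, and 4.81% lower and 3.82% higher under JSH-23. Without the 2 samples low in muscle genes 3 were called lower under vehicle, 2 of them the same genes, and under JSH-23 2 of the 5 were called lower and 0 of the 17 higher. With JSH-23 against vehicle, 2 were called higher and 2 lower in WT tumors and 3 lower in KO tumors, and without those samples 0 were higher and 1 lower in WT and 1 lower in KO tumors. With all samples, 11.8% of the 17 were called higher and 11.8% lower with JSH-23 in WT tumors, against 5.7% and 10.2% over all genes. In KO tumors it was 0% higher and 17.6% lower, against 9.57% and 16.6%. *Ltbp1*, which encodes a protein that holds latent TGF-beta in the matrix, was at 535 and 527 CPM in vehicle-treated and 529 and 510 CPM in JSH-23-treated WT tumors. KO tumors had 326 and 334 CPM with vehicle and 481 and 482 CPM with JSH-23. The vehicle-treated KO samples were below all the others (-0.68 against WT, standard error 0.021, edgeR adjusted p = 1.51e-40). *Thbs1*, which encodes an activator of latent TGF-beta, had 69 and 42 counts in vehicle-treated and 36 and 2 in JSH-23-treated WT tumors. It had 0 and 3 counts in vehicle-treated and 2 and 0 in JSH-23-treated KO tumors, and was called lower in KO tumors under both treatments, under JSH-23 not without WT JSH-23 replicate 1 (-1.14, adjusted p = 0.596). The BMP antagonist gene *Chrd* (-2.49) and the proteoglycan gene *Bgn* (-1.64) were called lower in KO than in WT tumors under JSH-23, both under 4 CPM in every sample. The counts of *Bgn* differed within groups, with 13 and 54 in vehicle-treated WT tumors and 39 and 5 in JSH-23-treated KO tumors, the low sample being in each case the one low in muscle genes. Without KO JSH-23 replicate 2 the difference in *Bgn* was -0.75 (adjusted p = 0.104) and was not called, and without both low samples that of *Chrd* was -2.32 and still called. The counts of the leukocyte gene *Adgre1*, looked at after its values were seen, were placed like those of *Thbs1*. They were 17 and 19 in vehicle-treated and 17 and 1 in JSH-23-treated WT tumors. In KO tumors they were 0 and 0 with vehicle and 0 and 2 with JSH-23. The leukocyte gene *Cd68* went the other way, with 110 and 127 counts in vehicle-treated WT and 301 and 378 in vehicle-treated KO tumors. The part of muscle cells or leukocytes in these differences was not tested.

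Of 19 tested regulators inside the cell, 1 was called between genotypes, the SMAD co-repressor gene *Ski*, which was lower in KO than in WT tumors under JSH-23 (-0.70, standard error 0.047, edgeR adjusted p = 1.44e-21). That is 5.26% of the 19, near the 4.81% called lower over all genes. With JSH-23 in KO tumors 2 of the 19 were called higher (10.5%, against 9.57% over all genes) and 1 lower (5.26%, against 16.6%). *Map3k7*, which encodes the TGF-beta activated kinase TAK1, was called lower with JSH-23 in KO tumors, from 68.4 and 68.2 CPM to 39.0 and 39.7 CPM (-0.79, standard error 0.056, edgeR adjusted p = 5.88e-21). *Tab1*, which encodes a partner of TAK1, was called higher there, from 38.6 and 36.0 CPM to 56.7 and 56.5 CPM (0.61, standard error 0.059, edgeR adjusted p = 1.65e-14), though under 1.5-fold without KO vehicle replicate 2 (0.55).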

How the data were processed

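RNA-seq was read for 8 samples, grouped by the genotype and treatment in the sample labels. The authors deposited, for each of 39089 genes, a count of reads, whole and not normalized, and a TPM value. By the study's methods the reads were mapped with TopHat2 (GRCm38/mm10; only the best hit was kept) and counted by strand in HTSeq-count; the submitters' processing notes name HISAT2, HTSeq and DESeq2. All 312712 deposited TPM values equalled count divided by gene length, scaled per sample; TPM keeps no depth. Positions are those of the GENCODE annotation of GRCm38.

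The filterByExpr function of edgeR kept 13921 genes and left 25168 not tested. Counts were scaled by TMM (factors 0.947 to 1.03) and fitted with edgeR 4.0.16 (R 4.3.3), with a mean for each group over all 8 samples. CPM values are TMM-scaled. The alternatives were DESeq2 1.42.0, limma 3.58.1 (log2 of TPM + 1 or + 0.1), library size alone, a minimum of 10 counts in every sample, no filter, only the groups compared, a replicate block, fixed biological coefficients of variation of 0.1 and 0.2, each sample left out and, chosen after seeing the data, the 2 samples low in muscle genes left out. The test was checked on simulated data.

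The members, gene lists and tests were chosen with earlier results of these data known. Pathway genes were named by rule: up to 3 in each list with the largest called change between groups and a mean of at least 1 CPM, and for each called member the 2 most alike by Pearson r. *Junb*, *Edn1*, *Klf10*, *Ltbp1*, *Snai1*, *Tgfbi* and *Gdf15* were named after their values were seen. So were *Adgre1* and the marker genes singled out from the sums. The values of 1 listed target, which is in the counts and medians of its list, are not reported here. Promoter windows are from RefSeq (GRCm38.p6).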

Additional observations from a re-analysis of the deposited data

Results flagged for a closer look

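For 4 of the 9 tested genes the change with JSH-23 differed between WT and KO in the interaction test of edgeR (adjusted p under 0.05), which 38.6% of all genes also passed. The interaction was 0.82 on the log2 scale for *Id1*, which was lower with JSH-23 in WT tumors, and -0.65 for *Tgfbr1*, which was lower with JSH-23 in KO tumors. It was -0.35 for *Tgfb1*, where the samples with JSH-23 were above those with vehicle in WT and below them in KO tumors, and 0.26 for *Smad6*. With a biological coefficient of variation of 0.1 the interaction of *Id1* still passed (adjusted p = 0.00688), and those of *Tgfbr1* (adjusted p = 0.0589), *Tgfb1* (adjusted p = 0.374) and *Smad6* (adjusted p = 0.576) did not.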

How the results depend on the processing

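Of 846 fold changes recomputed under the alternatives, 734 kept their direction and their side of the threshold and 19 changed sign; of 188 counts, 157 stayed within 1.5 times. The causes were not tested. Of the 19 changes of sign, 2 were of a value that had passed: *Id1* with JSH-23 in KO tumors, -0.074 on log2(TPM + 1) and -0.075 on log2(TPM + 0.1). The others were of values that had not passed. On the same 2 scales *Tgfb3* was -0.14 and -0.14 for KO against WT under JSH-23 and -0.090 and -0.091 for the interaction, and the interaction of *Smad7* was -0.18 and -0.18. With library size only, *Tgfb3* between genotypes under JSH-23 was -0.025 and the interaction of *Smad7* -0.088. With 1 sample left out, the values between genotypes with vehicle were -0.018 to 0.078 for *Tgfb1*, -0.12 to 0.016 for *Tgfb2* and -0.15 to 0.11 for *Smad6*. The interactions were then -0.20 to 0.027 for *Tgfb2*, -0.12 to 0.063 for *Tgfbr2* and -0.0049 to 0.048 for *Smad7*. These scalings moved the median of all genes, to -0.13 for JSH-23 in KO tumors with library size only and to -0.20 on log2(TPM + 1).

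The members called changed as follows. With library size only and on both TPM scales there was 1 between genotypes with JSH-23 (*Id1*) and 1 for JSH-23 in KO tumors (*Tgfbr1*, lower). With a biological coefficient of variation of 0.1 there was 1 in the interaction, as there was without the 2 samples low in muscle genes, an alternative chosen after seeing the data. With 0.2 there were 0 between genotypes with vehicle, 1 with JSH-23, 0 for JSH-23 in WT tumors and 0 in the interaction. With 1 sample left out there were 1 to 2 for JSH-23 in WT tumors (2 without WT vehicle replicate 2 or WT JSH-23 replicate 1, *Tgfb2* being added) and 1 to 2 in the interaction.

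Of the 77 other pathway genes, 16 were called between genotypes with vehicle, 13 with JSH-23, 17 for JSH-23 in KO and 12 in WT tumors, and 4 in the interaction. Between genotypes with vehicle the count was 10 with DESeq2, with at least 10 counts in every sample and on log2(TPM + 1), and between genotypes with JSH-23 it was 7 with DESeq2 and 5 with at least 10 counts. With at least 10 counts it was 9 for JSH-23 in KO and 5 in WT tumors. The interaction had 8 on log2(TPM + 0.1). With a biological coefficient of variation of 0.2 the counts were 4 and 5 between genotypes with vehicle and JSH-23, 6 for JSH-23 in KO tumors and 1 in the interaction. With 1 sample left out the ranges were 10 to 16 between genotypes with vehicle (10 without KO vehicle replicate 1) and 3 to 8 in the interaction (8 without WT vehicle replicate 2 or KO JSH-23 replicate 1).

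The replicate numbers did not pair the samples: the differences between replicates correlated between groups at -0.0074 to 0.027 over 9190 genes. With the replicate block the members called were 1, 2, 0, 1 and 2 in the 5 comparisons, as without it, and the interaction of *Id1* was 0.82. Pairs of samples limit the estimate of spread, and depth limits *Bmp4*.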
